A study of Mus musculus with 24 samples.

Results

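UTX depletion was examined in 12 of the 24 RNA-seq libraries of this series, namely every library whose table column carries the UTX prefix. The 6 libraries made with indole-3-acetic acid (+IAA) were set against the 6 made without it (-IAA), with the time in retinoic acid (RA) as a covariate. The study asked whether removal of UTX or of the deubiquitinase BAP1 changes the activation of Polycomb targets by RA in mouse embryonic stem cells (ESCs). All 12 libraries come from UTX-AID ESCs, a clone in which an HA-AID tag was placed at the N terminus of UTX and in which TIR1, the plant adaptor that hands AID-tagged proteins to a ubiquitin ligase, is stably overexpressed. Both arms carry the tag and TIR1. The arms differ in IAA, a plant auxin dissolved in ethanol and given 2 h before RA. Whether the -IAA arm received ethanol alone is not stated in the sources used here. Each arm holds 2 libraries at 0, 3 and 6 h of RA, which was given without leukemia inhibitory factor. Hours in IAA lengthened together with hours in RA. The labels do not say that replicates are separate cultures, so p-values measure the spread between these libraries, which may be technical. No library of untagged cells with IAA is analysed here, so within this clone the loss of UTX and the auxin itself, with its solvent if unmatched, cannot be told apart.

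UTX, encoded by the X-linked gene *Kdm6a*, removes methyl groups from lysine 27 of histone H3, the mark laid down by Polycomb repressive complex 2 (PRC2). It also sits in the MLL3/4 complexes, which methylate histone H3 at enhancers, and part of its work there does not need its demethylase activity. Its relatives are *Kdm6b*, which encodes the demethylase JMJD3, and the Y-linked *Uty*, whose product has little catalytic activity.

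The AID system acts on protein, so the *Kdm6a* transcript does not report the depletion. *Kdm6a* (chromosome X, 18028776 to 18146877, plus strand, mm39) was between 96.0 and 114 CPM (counts scaled to library size, median 110) without IAA and between 109 and 125 CPM (median 119) with IAA. The arms were apart at all 3 RA times, and the log2 fold change of +IAA over -IAA was 0.13 (SE 0.0340, adjusted p = 0.0415). That call held in 1 of the 12 fits that left out a library, and without +IAA 3 h replicate 2 the adjusted p was 0.123. *Kdm6b* was at 44.8 to 85.9 CPM without and 41.6 to 88.5 CPM with IAA, a difference of -0.054 on the log2 scale (95% interval -0.17 to 0.058). *Uty* had 0 counts in 11 of the 12 UTX-AID libraries and 6 counts in the remaining library, against 412 to 970 counts in the 12 BAP1-AID libraries. The Y-linked *Eif2s3y*, looked up after the *Uty* values were seen, had 0 counts in 10 of the 12 UTX-AID libraries and at most 12, against 1864 to 3406 in BAP1-AID. The clones thus differ in Y-linked transcripts as well as in the tagged protein.

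Totals per library were between 42018795 and 54034789 counts, with a ratio of 1.05 between the arms' medians. Of 26264 genes in the table, 16268 passed the filter on low counts and were tested. The ESC markers *Pou5f1* and *Sox2* were at 808 to 956 CPM and at 212 to 320 CPM across the 12 libraries. Markers of feeder fibroblasts summed to 1.49 to 3.03 CPM without and 1.07 to 1.87 CPM with IAA, with *Lum* and *Postn* at 0 in every library. In such bulk samples, fewer cells of a type and less RNA per cell cannot be told apart.

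Averaged over the RA times, few genes differed by more than 2-fold between the +IAA and -IAA arms. A gene is referred to as called at an adjusted p under 0.05 with a log2 fold change beyond 1 in either direction. By this rule 5 genes were higher with IAA (0.0307% of those tested) and 10 were lower (0.0615%). The genes called higher were *Cyp1a1*, *Cyp1b1*, *Ahrr*, *Trex1* and *Gm2260*. Those called lower were *Lrrk1*, *Sema3f*, *Ahnak2*, *Vgll3*, *Rnf144b*, *Nhsl2*, *Lrrn4*, *Nrgn*, *Pla2g7* and *Pak6*. The smallest absolute log2 fold change among them was 1.01, and the largest below the threshold was 0.99, that of *Egr1*. With single libraries left out, 2 to 6 genes were called higher and 6 to 13 lower. The number called higher dropped to 2 without +IAA 3 h replicate 1 and to 3 without +IAA 6 h replicate 1 or without -IAA 3 h replicate 2. The number called lower dropped to 6 without either of the -IAA libraries at 0 h.

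Many more genes moved by a small amount. At an adjusted p under 0.05 and any fold, 170 genes rose (1.04% of those tested) and 316 fell (1.94%), with median log2 fold changes of 0.23 and -0.31. Of these 486 genes, 397 (81.7%) changed by less than 0.5 on the log2 scale. These genes were chosen by a test on the same libraries, so their shared sign and the separation of arms follow in part from that choice. All 486 kept the same sign at 0, 3 and 6 h. Both +IAA libraries were above both -IAA libraries at all 3 times for 143 of the 170 genes (84.1%) and below them for 257 of the 316 (81.3%), against 2.25% and 2.85% of all tested genes. Over the times together, all 6 +IAA libraries were above all 6 -IAA libraries for 66 of the 170 and below them for 69 of the 316, against 0.664% and 0.559% of tested genes. The median log2 fold change over all tested genes was -0.0033.

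**Figure D1:**
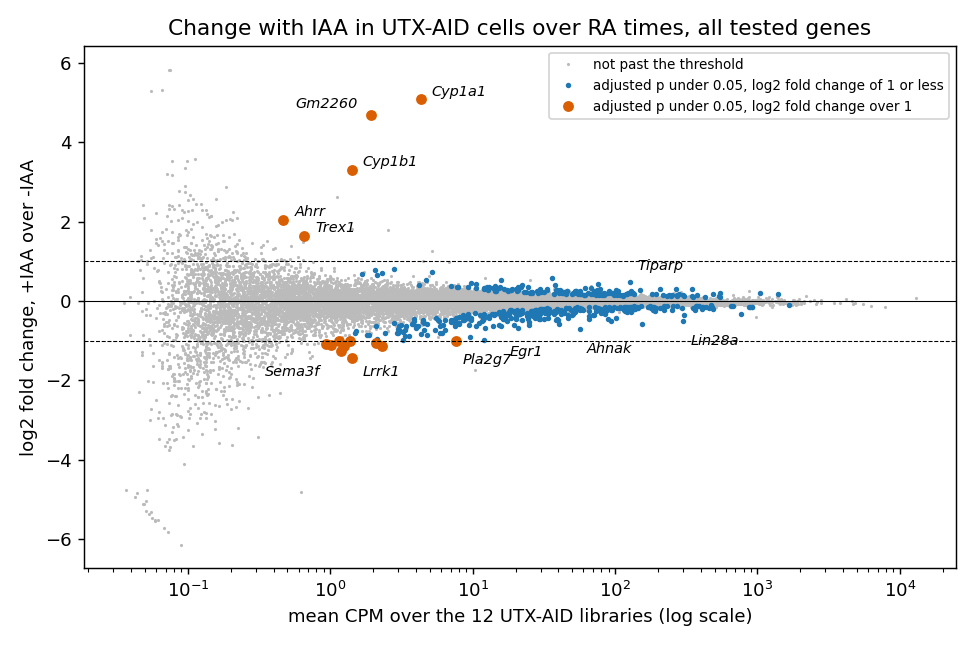
Log2 fold change of +IAA over -IAA in UTX-AID ESCs over the RA times (vertical axis) against the mean level in CPM over the 12 libraries (horizontal axis, log scale) for the 16268 tested genes; dashed lines mark a log2 fold change of 1 in either direction. The 15 called genes (orange) all have a mean below 10 CPM, and the other 471 genes with an adjusted p under 0.05 (blue) lie within the dashed lines.

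The aryl hydrocarbon receptor (AhR) had targets with the largest response. AhR is a transcription factor that moves into the nucleus upon binding planar aromatic ligands, pairs with ARNT and activates genes of xenobiotic metabolism. Of 8 AhR targets on the list used here, 7 were tested, 5 rose and 0 fell, with a median log2 fold change of 1.38. *Ugt1a6a* had 0 counts in all 12 libraries.

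*Cyp1a1* encodes a cytochrome P450 that oxidizes AhR ligands (chromosome 9, 57595211 to 57611107, plus strand). It was nearly silent without IAA, at 0 and 0.368 CPM at 0 h, 0.476 and 0.0826 CPM at 3 h, and 0.225 and 0.314 CPM at 6 h of RA. With IAA it was at 12.1 and 8.99 CPM at 0 h, 9.59 and 6.88 CPM at 3 h, and 7.29 and 5.57 CPM at 6 h. Every +IAA library was above every -IAA library. The change was 33.8-fold, a log2 fold change of 5.08 (SE 0.375, 95% interval 4.29 to 5.87, adjusted p = 3.25e-07).

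*Cyp1b1* encodes a related P450 (chromosome 17, 80008966 to 80022532, minus strand). Its level ran from 0.103 to 0.427 CPM (median 0.254) without IAA and from 1.11 to 4.10 CPM (median 2.48) with IAA, with the arms fully apart. The log2 fold change was 3.30 (SE 0.302, adjusted p = 1.08e-05). *Ahrr* encodes a repressor that competes with AhR for ARNT and is itself induced by AhR (chromosome 13, 74359237 to 74440462, minus strand). It ran from 0.0713 to 0.292 CPM (median 0.178) without IAA and from 0.310 to 1.18 CPM (median 0.700) in the +IAA arm, again with no overlap. Its log2 fold change was 2.05 (SE 0.453, adjusted p = 0.0206), and the adjusted p rose to 0.0639 without +IAA 0 h replicate 1.

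The other AhR targets that rose were already well expressed, and their changes were smaller and more precise. *Tiparp* encodes an ADP-ribosyltransferase that restrains AhR. It went from 96.8 to 118 CPM (median 105) without IAA to between 137 and 163 CPM (median 146) with IAA, a log2 fold change of 0.47 (SE 0.0464, adjusted p = 1.63e-05). *Nqo1*, a quinone reductase gene shared by the AhR and NRF2 programs, went from 60.3 to 70.3 CPM (median 63.4) to between 81.6 and 95.4 CPM (median 86.5), a log2 fold change of 0.43 (SE 0.0426, adjusted p = 1.63e-05). Neither gene had overlapping arms. *Aldh3a1*, an aldehyde dehydrogenase gene, did not pass the test at -0.36 (95% interval -0.71 to -0.0020, adjusted p = 0.315). On the receptor side, neither *Ahr* nor *Arnt* passed the test, and both had intervals within 0.5 of 0.

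The AhR-ARNT pair binds the core GCGTG, and the form TNGCGTG was searched on both strands in the 1000 bases before the start of the canonical GENCODE transcript on GRCm39. It occurred in 15.2% of 15604 such windows. There were 6 matches before *Cyp1a1*, 2 before *Cyp1b1*, 2 before *Ahrr*, 1 before *Nqo1* and 0 before *Tiparp*. The match nearest to the start of each gene is shown 5′ to 3′ on the strand that carries it, for the 4 AhR targets that rose and hold a match. Capitals mark the motif.
Cyp1a1, chr9:57604059-57604087, plus strand: ctcctgctgtcTCGCGTGgatccttcctc
Cyp1a1, next match, chr9:57603988-57604016, minus strand: gttcctgaggcTAGCGTGcgtaagcctgc
Cyp1b1, chr17:80023327-80023355, plus strand: tcgcctcccccTTGCGTGcggagctgtgc
Ahrr, chr13:74440462-74440490, minus strand: ggcggggcggcTCGCGTGctggggtgggg
Nqo1, chr8:108130207-108130235, minus strand: cacccttccccTAGCGTGcaaaggtgact
The motif ended 66 and 137 bases before the start for the pair of *Cyp1a1* sites, 806 bases for *Cyp1b1*, 11 bases for *Ahrr* and 284 bases for *Nqo1*. A match of letters is not evidence of binding.

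**Figure D2:**
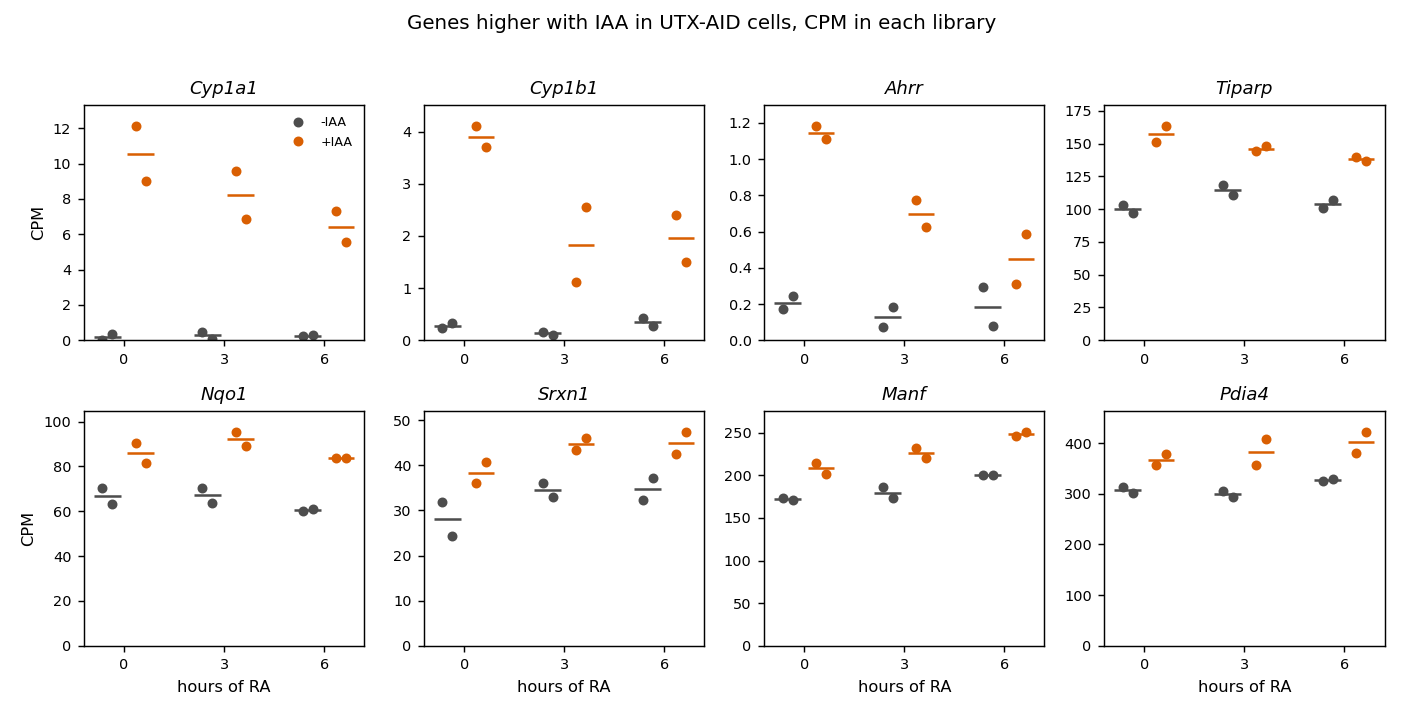
CPM (vertical axes, from 0) of 8 genes that rose with IAA in UTX-AID ESCs, at 0, 3 and 6 h of RA (horizontal axes); each point is 1 of 12 libraries and each bar the mean of 2. The +IAA libraries (orange) of *Cyp1a1* lie between 5.57 and 12.1 CPM, above all -IAA libraries (grey), and those of *Pdia4* between 357 and 422 CPM.

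The remaining genes called higher had little expression. *Trex1*, an exonuclease that degrades cytosolic DNA, ran from 0.190 to 0.412 CPM without IAA and from 0.378 to 1.55 CPM with IAA, and the arms overlapped at 1 of the 3 times (log2 fold change 1.64, SE 0.407, adjusted p = 0.0401). It lies within *Atrip* on the same strand and overlaps *Shisa5* on the other strand, so its reads may be shared, and its adjusted p was 0.155 without +IAA 0 h replicate 2. *Gm2260*, which has no GENCODE entry of that symbol, was at 8.21 and 13.9 CPM in 2 of the +IAA libraries, those numbered 1 at 3 and 6 h, and between 0.0848 and 0.124 CPM in the other 10. Without +IAA 6 h replicate 1 its adjusted p was 0.272.

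Antioxidant genes rose in part. NRF2 is the transcription factor that induces glutathione and thioredoxin enzymes under oxidative or electrophilic stress. Of 8 NRF2 targets tested, 2 rose and 0 fell (median 0.14). *Srxn1*, which encodes sulfiredoxin, ran from 24.3 to 37.2 CPM (median 32.6) without IAA and from 36.0 to 47.4 CPM (median 43.0) with IAA (log2 fold change 0.40, SE 0.0643, adjusted p = 0.00197). *Gclc*, which encodes a subunit of the first enzyme of glutathione synthesis, rose by 0.17 (SE 0.0367, adjusted p = 0.0176, and 0.0584 without +IAA 0 h replicate 1). *Nfe2l2*, the gene of NRF2 itself, was picked after its values were seen and rose by 0.31 (adjusted p = 0.00408), from 61.1 to 77.3 CPM to between 82.7 and 92.0 CPM. *Nxn*, encoding the thioredoxin-like nucleoredoxin, went from a median of 28.2 to 43.2 CPM (log2 fold change 0.57, SE 0.0569, adjusted p = 1.63e-05). *Slc48a1*, a heme transporter gene, went from 9.53 to 14.3 CPM to between 17.0 and 20.1 CPM (log2 fold change 0.52, adjusted p = 0.000802).

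Several genes of protein folding in the endoplasmic reticulum (ER) rose by small amounts. Among the 10 genes with the smallest p-values that rose by less than 2-fold, *Manf*, *Calr*, *Pdia4* and *Surf4* serve the ER. *Manf*, a secreted protein induced by ER stress, was at 171 to 201 CPM (median 180) without IAA and at 202 to 251 CPM (median 226) with IAA (log2 fold change 0.30, SE 0.0318, adjusted p = 2.69e-05). *Pdia4*, a protein disulfide isomerase, was at 294 to 330 CPM without and 357 to 422 CPM with IAA (0.30, SE 0.0374, adjusted p = 0.000170). In both genes the arms were fully apart. *Calr*, the lectin chaperone calreticulin, was at 845 and 856 CPM at 0 h, 948 and 947 CPM at 3 h, and 1143 and 1079 CPM at 6 h in the -IAA arm. In the +IAA arm it was at 977 and 998, 1056 and 1127, and 1235 and 1289 CPM, above the other arm at each time. The log2 fold change was 0.20 (SE 0.0248, adjusted p = 0.000148). *Surf4*, a cargo receptor between ER and Golgi, rose by 0.25 (adjusted p = 0.000195) and *Hspa5*, the chaperone BiP, by 0.17 (adjusted p = 0.00389).

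A list of 30 genes of ER folding, translocation and glycosylation was drawn up after these values were seen. It includes *Manf*, *Calr*, *Pdia4* and *Hspa5*, named above, so its counts follow in part from that choice. Of its members 16 rose, against 1.04% of all tested genes, and 0 fell, against 1.94%. A positive log2 fold change was found in 29 of the 30 (median 0.13). With single libraries left out, 9 to 14 of them rose and 0 fell, with 9 without +IAA 3 h replicate 2. On a separate list of 9 genes of the ATF4 and unfolded protein responses, 2 rose (*Hspa5* and *Xbp1*, a transcription factor spliced upon ER stress, at 0.18) and 0 fell. *Asns*, a target of the stress factor ATF4, was at 0.018 (95% interval -0.11 to 0.15). Of 6 heat shock genes, 0 passed the test, and each had an interval within 0.5 of 0. The ER stress element, CCAAT and CCACG with 9 bases between them, was searched in the same way. It occurred in 23 of the 15604 windows (0.147%), among them those of *Calr* and *Hspa5*, whose sites are shown because both genes belong to the group that rose.
Calr, chr8:85573699-85573727, plus strand: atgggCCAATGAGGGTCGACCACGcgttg
Hspa5, chr2:34662032-34662060, plus strand: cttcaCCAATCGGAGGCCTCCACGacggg
The element ended 37 and 49 bases before the start of the respective transcript, and it had 0 matches before *Manf*, *Pdia4*, *Xbp1*, *Surf4*, *Ssr3* and *Txndc5*. These genes were chosen because they rose, and matches before the other ER genes that rose are not given. Whether the element is more frequent among genes that rose was not tested, and here too a match is not evidence of binding.

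The 10 genes called lower had a mean below 10 CPM. *Lrrk1*, a leucine-rich repeat kinase gene (chromosome 7, 65876660 to 66038118, minus strand), had the largest fall. Its -IAA libraries were at 0.827 and 0.327 CPM at 0 h, 2.64 and 2.95 CPM at 3 h, and 2.29 and 3.10 CPM at 6 h. Its +IAA libraries were at 0.191 and 0.141, 0.444 and 1.25, and 1.43 and 1.37 CPM. The arms were apart at each time although their ranges over all times overlap, and *Lrrk1* rose with RA (log2 fold change 2.23 at 6 h without IAA, adjusted p = 0.00876). The log2 fold change by IAA was -1.44 (SE 0.281, 95% interval -2.03 to -0.85, adjusted p = 0.00839).

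*Sema3f* encodes a secreted semaphorin that repels growing axons and vessels (chromosome 9, 107558698 to 107587674, minus strand). It ran from 1.35 to 2.35 CPM (median 1.65) without IAA and from 0.481 to 1.09 CPM (median 0.602) with IAA, with no overlap (log2 fold change -1.25, SE 0.239, adjusted p = 0.00715). *Ahnak2*, a giant scaffold protein gene, ran from 1.78 to 5.05 CPM (median 2.83) without and from 0.883 to 1.74 CPM (median 1.52) with IAA, also with no overlap (-1.13, SE 0.224, adjusted p = 0.00877). *Vgll3*, a cofactor of TEAD transcription factors, fell by 1.13 on the log2 scale (adjusted p = 0.0152), and its level dropped from 0.744 to 3.10 CPM to between 0.407 and 1.07 CPM. *Pla2g7*, a secreted phospholipase that inactivates platelet-activating factor, ran from 5.62 to 19.7 CPM in the -IAA arm and from 4.09 to 5.89 CPM in the +IAA arm, and its log2 fold change was -1.01 (adjusted p = 0.00577).

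The other genes called lower had log2 fold changes between -1.11 and -1.01. They encode the leucine-rich repeat protein LRRN4, the kinase PAK6, the ubiquitin ligase RNF144B, the calmodulin-binding neurogranin (*Nrgn*) and NHSL2. Arms were apart at all 3 times for *Pak6*, *Rnf144b* and *Nhsl2* and at 2 times for *Lrrn4* and *Nrgn*. Over the 20 alternative settings, *Lrrk1* and *Sema3f* were called in 20, *Ahnak2* and *Vgll3* in 19, *Lrrn4* in 18, *Pla2g7* in 14, *Pak6* in 12, and *Nhsl2*, *Rnf144b* and *Nrgn* in 11. *Nhsl2* and *Nrgn* had an adjusted p of 0.0964 and 0.0915 without +IAA 3 h replicate 2, and *Rnf144b* one of 0.0882 without -IAA 3 h replicate 1. *Lrrn4*, *Nrgn* and *Nhsl2* overlap protein-coding genes on the other strand, and whether the counting used the strand is not given in the sources used here.

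**Figure D3:**
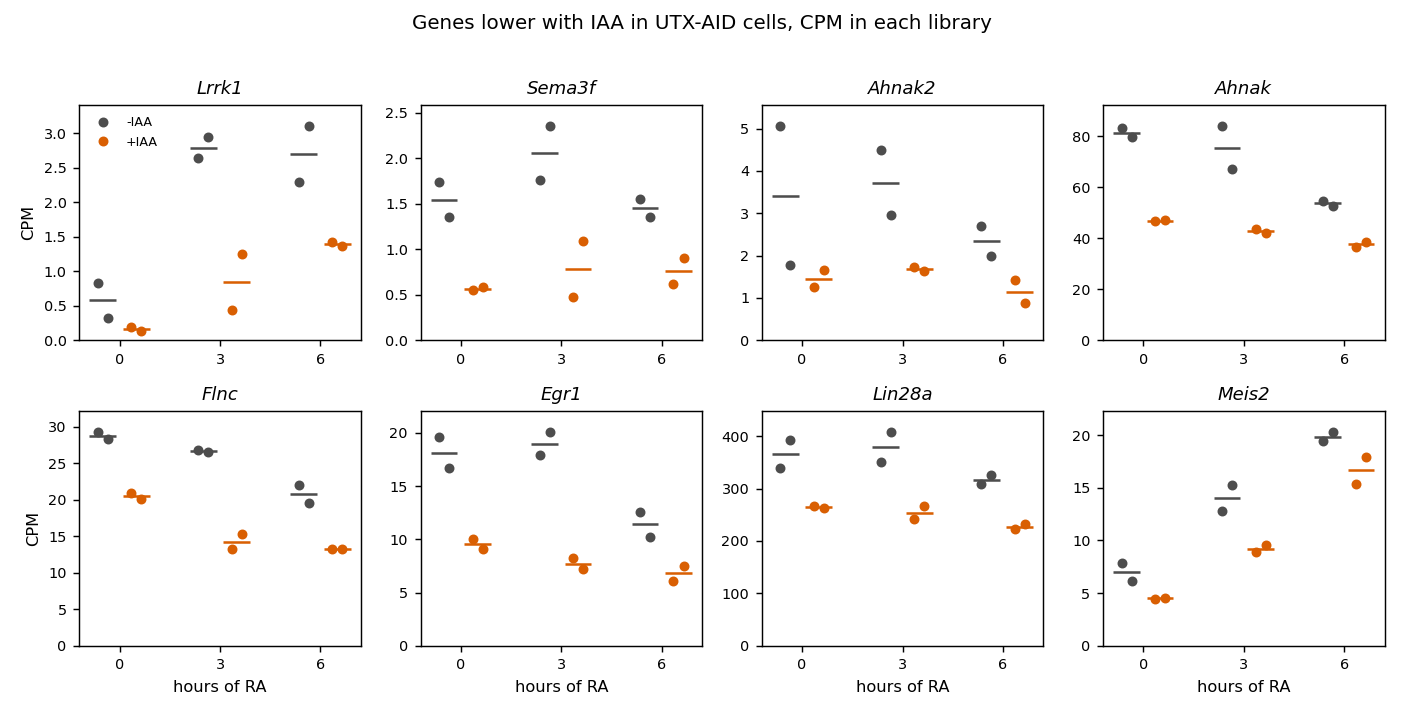
CPM (vertical axes, from 0) of 8 genes that fell with IAA in UTX-AID ESCs, at 0, 3 and 6 h of RA (horizontal axes); each point is 1 of 12 libraries and each bar the mean of 2. The +IAA libraries (orange) of *Ahnak* lie between 36.7 and 47.1 CPM, below all -IAA libraries (grey, 52.8 to 83.8 CPM).

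The 10 genes with the smallest p-values among those that fell by less than 2-fold were *Ahnak*, *Lin28a*, *Agrn*, *Egr1*, *Flnc*, *Lamb1*, *Ldb1*, *Spata13*, *Itga3* and *Podxl*. *Ahnak*, the relative of *Ahnak2*, had the smallest p-value of the genes that fell (chromosome 19, 8966311 to 9055220, plus strand). It was at 52.8 to 83.8 CPM (median 73.3) without IAA and at 36.7 to 47.1 CPM (median 42.8) with IAA (log2 fold change -0.71, SE 0.0575, adjusted p = 2.94e-06). *Flnc*, which encodes the actin cross-linker filamin C, went from 19.6 to 29.3 CPM to between 13.2 and 20.9 CPM (-0.68, SE 0.0688, adjusted p = 1.83e-05). *Agrn*, a basement membrane proteoglycan, fell by 0.50 (adjusted p = 1.08e-05), *Lamb1*, a laminin chain, by 0.49 (adjusted p = 2.69e-05), and *Itga3*, a laminin-binding integrin subunit, by 0.61 (adjusted p = 6.41e-05). *Podxl*, a sialomucin of the cell surface, fell by 0.52 and *Spata13*, an exchange factor for Rac and Cdc42, by 0.46.

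A list of 24 genes of actin binding and focal adhesion was drawn up after values were seen. It includes *Flnc*, named above, so its counts follow in part from that choice. Of its members 9 fell, against 1.94% of all tested genes, and 1 rose (*Lima1*, at 0.27), against 1.04%. Negative log2 fold changes were found in 22 (median -0.16). With single libraries left out, 4 to 8 fell, with 4 without +IAA 3 h replicate 2 and 5 in 6 of the other fits. *Tns1*, which encodes tensin 1 of focal adhesions, was at -0.69 (SE 0.0825, adjusted p = 0.000124). By symbol, 1 of 9 laminins (*Lamb1*), 1 of 23 integrins (*Itga3*), 1 of 33 collagens (*Col18a1*, at -0.19) and 3 of 11 annexins (*Anxa1*, *Anxa2* and *Anxa6*) fell, and 0 members of these families rose. The families were looked up after values were seen. With 1 gene passing in each of the laminins, integrins and collagens, a fall of those families was not shown. The adjusted p was 0.0934 for *Anxa1* without +IAA 3 h replicate 2 and 0.0788 for *Anxa6* without -IAA 3 h replicate 2. *Anxa2*, a calcium-dependent membrane binder, was at 28.2 to 40.7 CPM without and 20.6 to 27.7 CPM with IAA (-0.42, adjusted p = 0.00336).

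*Egr1*, an immediate early transcription factor induced by growth factor signaling, fell by 0.99 on the log2 scale (SE 0.0983, adjusted p = 1.63e-05). It ran from 10.2 to 20.1 CPM (median 17.3) without IAA and from 6.11 to 10 CPM (median 7.87) with IAA, and every +IAA library was below every -IAA library. It was the only one of 12 immediate early genes tested to pass. The interval lay within 0.5 log2 units of 0 for 6 of the 12 and within 1 for 8, so smaller or larger changes of the rest are not excluded. *Ier2* of the same list was at -0.085 (adjusted p = 0.319). Of 12 feedback genes of FGF-ERK signaling, *Spry2* fell (-0.23, adjusted p = 0.0177) and 0 rose, and each of the 12 had an interval within 0.5 of 0. Without +IAA 3 h replicate 1 the adjusted p of *Spry2* was 0.0571.

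Pluripotency genes moved little, with *Lin28a* as the exception. *Lin28a* encodes an RNA-binding protein that blocks maturation of let-7 (chromosome 4, 133730641 to 133746173, minus strand). It was at 308 to 408 CPM (median 346) without IAA and at 222 to 266 CPM (median 252) with IAA, with no overlap (log2 fold change -0.51, SE 0.0440, adjusted p = 5.14e-06). Of the other 5 core pluripotency genes 0 passed the test, and *Pou5f1* was at -0.090 (95% interval -0.15 to -0.036, adjusted p = 0.0704). Of 11 genes of naive pluripotency, 0 passed, and each had an interval within 0.5 of 0. Among 7 formative genes, *Dnmt3l* fell (-0.24, adjusted p = 0.0147).

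Among markers of other lineages, those that passed the test fell. Of 7 neural genes, *Nes*, *Nefl* and *Nefm* fell and 0 rose (median -0.26). *Nes*, which encodes the intermediate filament nestin, ran from 18.8 to 27.0 CPM without and from 16.2 to 18.2 CPM with IAA (-0.40, adjusted p = 0.00389). The summed level of the neural genes was 87.0 to 125 CPM (median 112) without and 79.0 to 104 CPM (median 88.3) with IAA. Of 9 mesendoderm genes, *Lefty2*, an inhibitor of Nodal signaling, fell (-0.45, SE 0.0866, adjusted p = 0.00684), from 83.1 to 134 CPM to between 60.7 and 88.1 CPM. Of 7 primitive endoderm, 6 trophoblast and 5 fibroblast genes, 0 passed in either direction. Of 6 genes of the two-cell-like state, *Zscan4c* and *Zscan4f* fell (-0.41 and -0.48, adjusted p = 0.0286 and 0.0318), and these near-identical copies share reads, so their values are uncertain. Without +IAA 3 h replicate 2 the adjusted p was 0.0658 for *Nefl*, 0.105 for *Nefm*, 0.0828 for *Zscan4c* and 0.0973 for *Zscan4f*. *Nefl* and *Nefm* overlap on opposite strands and may share reads.

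**Figure D4:**
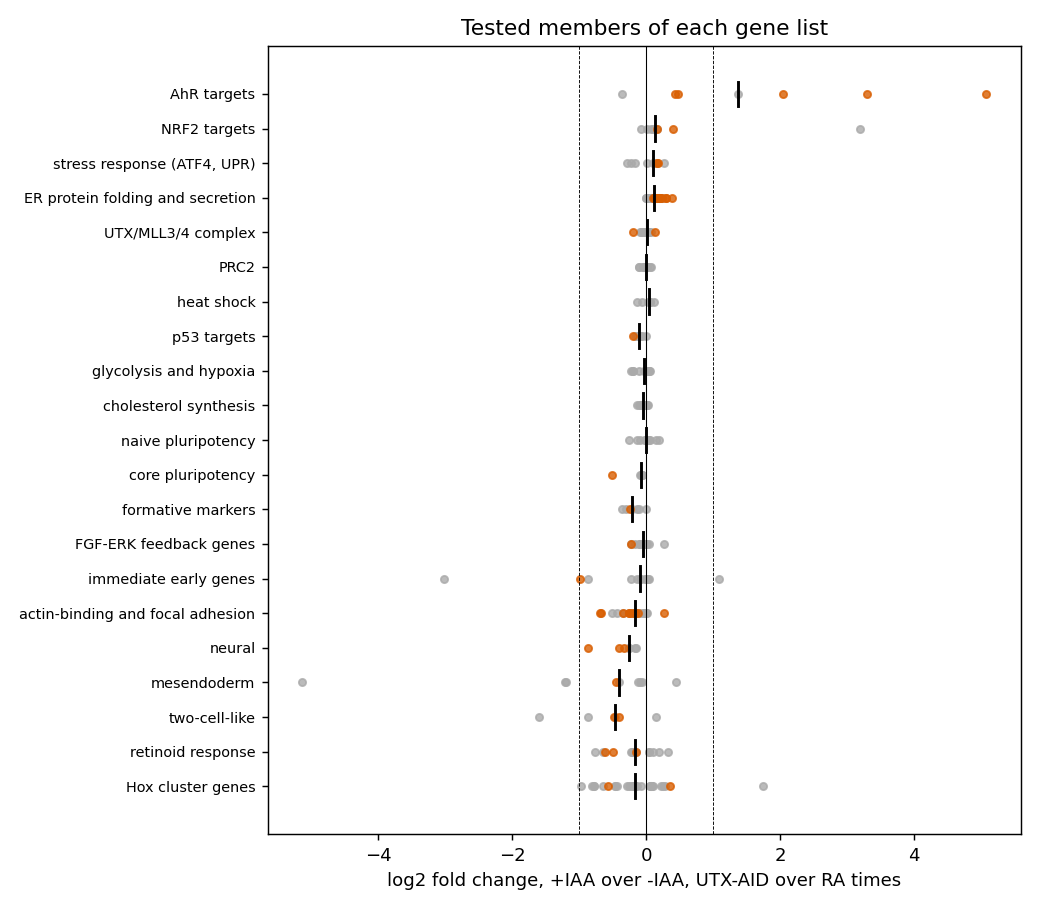
Log2 fold change of +IAA over -IAA over the RA times (horizontal axis) for the tested members of 21 gene lists (rows); orange points passed an adjusted p under 0.05, grey points did not, black ticks are list medians and dashed lines mark a log2 fold change of 1 in either direction. The AhR targets reach 5.08 with a median of 1.38, and the 16 orange points of the ER list lie at 0.38 or less.

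The genes of the chromatin machinery around UTX moved by little. Of 13 tested genes of UTX and its MLL3/4 partners, *Kdm6a* rose, *Kmt2c*, which encodes MLL3, fell (-0.19, SE 0.0491, adjusted p = 0.0456, and 0.122 without +IAA 3 h replicate 1), and each had an interval within 0.5 of 0. The same held for all 12 PRC2 genes, of which 0 passed the test, with a median of -0.0025. *Mtf2*, a PRC2 subunit that targets CpG islands, was at 0.0038 (SE 0.0259). The 3 subunits of the ubiquitin ligase that TIR1 joins, *Skp1*, *Cul1* and *Rbx1*, also had intervals within 0.5 of 0.

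The RA response is the setting in which UTX was removed, so its genes were examined next. Over genes above 1 CPM, the SD of the log2 fold change was 0.265 for IAA at 6 h and 0.497 for 6 h of RA without IAA, each a contrast of 2 against 2 libraries that share the -IAA libraries at 6 h. That RA contrast called 245 genes higher and 65 lower. *Hoxb4*, a homeobox gene that RA induces, was lower with IAA at 3 and 6 h, with 11.8 and 11.1 against 7.62 and 5.91 CPM and with 15.1 and 15.3 against 11.2 and 12.7 CPM (-0.57, SE 0.135, adjusted p = 0.0286). Its adjusted p was 0.102 without +IAA 3 h replicate 2. Of the 31 Hox genes tested, 29 did not pass. Over the RA times, the interval lay within 0.5 log2 units of 0 for 1 of the 31 and within 1 for 15. Those within 1 include all 13 Hox genes above 1 CPM. For the Hox genes outside that bound, a change beyond 1 log2 unit is not excluded.

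Among 15 genes of retinoid signaling, 3 fell, *Rarg* and *Meis2* among them, and 0 rose (median -0.17). Without +IAA 3 h replicate 2 the adjusted p of *Rarg* was 0.0800. *Meis2* encodes a homeodomain cofactor of Hox proteins. *Meis2* rose with RA in both arms and was lower with IAA at each time, at 7.89 and 6.15 against 4.44 and 4.57 CPM at 0 h, 12.8 and 15.3 against 8.89 and 9.53 CPM at 3 h, and 19.4 and 20.3 against 15.4 and 17.9 CPM at 6 h (-0.49, SE 0.0896, adjusted p = 0.00497). *Cyp26a1*, the RA-degrading enzyme, reached 123 and 129 CPM at 6 h in the -IAA arm and 140 and 132 CPM in the +IAA arm, a log2 fold change over the times of 0.099 (95% interval -0.16 to 0.35). *Hoxb1* was at -0.13 (95% interval -0.64 to 0.38).

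Genes that 6 h of RA induced in BAP1-AID cells kept without IAA form a set chosen without the UTX-AID libraries, though after other values here were seen. Of its 460 genes tested in UTX-AID, 6 rose, a share near the 1.04% of all genes. A further 22 fell, a larger share than the 1.94% of all genes, and the median was -0.081. For 369 of the 460 (80.2%), the 95% interval lay within 1 log2 unit of 0. At 6 h alone, 0 of them passed the test, which says little because only 5 of all genes tested did. The interval at 6 h lay within 1 log2 unit for 309 (67.2%), near the 69.1% of all genes.

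For the rest of the transcriptome the effect was bounded by the intervals. Of all tested genes, 10435 (64.1%) had a 95% interval within 0.5 log2 units of 0 and 12803 (78.7%) within 1. The bound depended on the level. Of the 2281 genes above 100 CPM, 99.6% were within 0.5, and of the 6213 genes between 10 and 100 CPM, 98.3%. Of the 3881 genes between 1 and 10 CPM, 52.9% were within 0.5 and 95.4% within 1. At 1 CPM or less the median SE was 0.677, and of these 3893 genes 0 were within 0.5 and 15.7% within 1, so a 2-fold change was not detectable in most of them. Above 1 CPM, 183 of 12375 genes were not bounded within 1 log2 unit, 12 of them called.

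The effect of IAA was also tested at each RA time and for a difference among times. At 0 h, *Cyp1a1* and *Cyp1b1* were called higher and *Gm45351* lower (3 genes, 0.0184% of those tested). At 3 h, *Cyp1a1*, *Cyp1b1* and *Htd2* were called higher and *Egr1*, *Pcdh1*, *Nefm* and *Gfra4* lower (7 genes, 0.043%). At 6 h, *Cyp1a1* and *Dynlt1f* were called higher and 0 genes lower by edgeR (2 genes in all, 0.0123%). At an unadjusted p under 0.05, a threshold that many genes pass with no effect, 571 were lower and 448 higher at 6 h. DESeq2 called 3 genes in all at 6 h. Without either -IAA or +IAA replicate 2 at 6 h, 0 genes were called at 6 h. *Pcdh1*, a protocadherin gene, fell by 0.91 over the times (SE 0.121, adjusted p = 0.000325), from 7.24 to 19.3 CPM to between 4.17 and 10 CPM.

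The log2 fold changes of *Cyp1a1* were 5.80, 4.92 and 4.55 at 0, 3 and 6 h, and those of *Ahnak* were -0.80, -0.81 and -0.52. For neither gene did the IAA effect differ among the times at an adjusted p under 0.05. It did so for 3 genes (0.0184%), *Htd2*, *Gm45351* and *Dynlt1f*. An unadjusted p under 0.05 was reached by 522 of the 16268 tested genes, fewer than would be expected with no effect at all. *Htd2* had 0 counts in both -IAA libraries at 3 h and 1.98 and 3.22 CPM with IAA, which is at least 36.4-fold higher, and was at 1.35 to 3.33 CPM at the other times without IAA. It shares its locus and strand with *Rpp14*, and *Dynlt1f* belongs to a family of near-identical copies, and the part of read assignment in these values was not tested. *Dynlt1f* was at 9.87 to 11.8 CPM without IAA and reached 21.2 and 28.4 CPM with IAA at 6 h only.

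The same auxin was given to BAP1-AID ESCs, which carry TIR1 and another tagged protein. There, 184 of 15695 genes were called (1.17%) and the adjusted p was under 0.05 for 17.3% of genes in the upward and 17.5% in the downward direction. Over genes, Spearman's rho between GC content and log2 fold change was -0.626 for BAP1-AID and 0.040 for UTX-AID, so its counts are given before and after a correction for GC content and length. Of the 170 genes that rose in UTX-AID, 47 rose and 35 fell in BAP1-AID, and 37 and 20 after the correction. Of the 316 that fell, 74 fell and 82 rose in BAP1-AID, and 43 and 61 after it. After the correction 13.9% of all genes were higher and 11.4% lower in BAP1-AID, so 20 of 170 and 43 of 316 lie near those shares.

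Some AhR targets rose in both clones. In BAP1-AID, 4 of 7 rose and 1 fell, and 3 rose and 0 fell after the correction. *Cyp1a1* rose by 5.46 (adjusted p = 6.00e-08) and *Cyp1b1* by 3.12 (adjusted p = 9.37e-08), and the test of the difference between the clones gave -0.40 (adjusted p = 0.659) and 0.15 (adjusted p = 0.808). *Tiparp* rose more in BAP1-AID (0.97 against 0.47, difference -0.52, adjusted p = 0.000118, and -0.26, adjusted p = 0.0198, after the correction). *Nqo1* (0.29, or 0.17 and no longer past the test after the correction, against 0.43, difference 0.12, adjusted p = 0.461) and *Nfe2l2* (0.36 against 0.31, difference -0.066, adjusted p = 0.614) were not shown to differ.

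Other changes differed between the clones by the test of the difference, which 25.4% of all genes passed (1.89% with a difference beyond 1 log2 unit). In BAP1-AID, *Manf* was at -0.080, *Pdia4* at -0.026 and *Calr* at -0.036, and the differences from UTX-AID were 0.37 (adjusted p = 0.000197), 0.31 (adjusted p = 0.000185) and 0.22 (adjusted p = 0.00227). After the correction these differences were 0.25, 0.44 and 0.12 (adjusted p = 0.00496, 4.70e-05 and 0.0450). Not every ER gene that rose in UTX-AID was shown to differ. The corrected difference was 0.095 for *Hspa5* (adjusted p = 0.205), -0.024 for *P4hb* (adjusted p = 0.781) and 0.15 for *Ssr3* (adjusted p = 0.201). For others it passed, such as *Ssr1* (0.28, adjusted p = 0.000656). Of the 30 ER genes, 10 rose and 7 fell in BAP1-AID, and 6 rose and 2 fell after the correction. Of the 24 genes of actin binding and focal adhesion, 9 fell and 2 rose in BAP1-AID, and 3 fell and 1 rose after the correction. Of 22 integrins tested there, 5 fell and 1 rose, and 4 and 1 after it. Over all genes in BAP1-AID, 17.5% were lower, and 11.4% after the correction. *Lin28a* was at -0.026 in BAP1-AID (difference -0.50, adjusted p = 1.47e-06) and *Agrn* at 0.076 (difference -0.59, adjusted p = 2.90e-07). *Ahnak* rose by 0.49 in BAP1-AID (difference -1.21, adjusted p = 1.89e-10), and by 0.26 after the correction (difference -0.94, adjusted p = 2.73e-08). *Egr1* fell in both, by 0.35 in BAP1-AID (difference -0.67, adjusted p = 6.63e-05), or by 0.18 after the correction (difference -0.81, adjusted p = 1.89e-05), and so did *Lefty2*, by 0.59 (difference 0.12, adjusted p = 0.486). Of the 15 genes called in UTX-AID, 8 passed the test of the difference between the clones, and 9 after the correction, when 17.8% of all genes passed. The 15 were chosen for large changes in UTX-AID, whose libraries the difference reuses, so these counts follow in part from that choice. As the clones also differ in Y-linked transcripts, a difference between them cannot be assigned to the tagged protein alone.

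**Figure D5:**
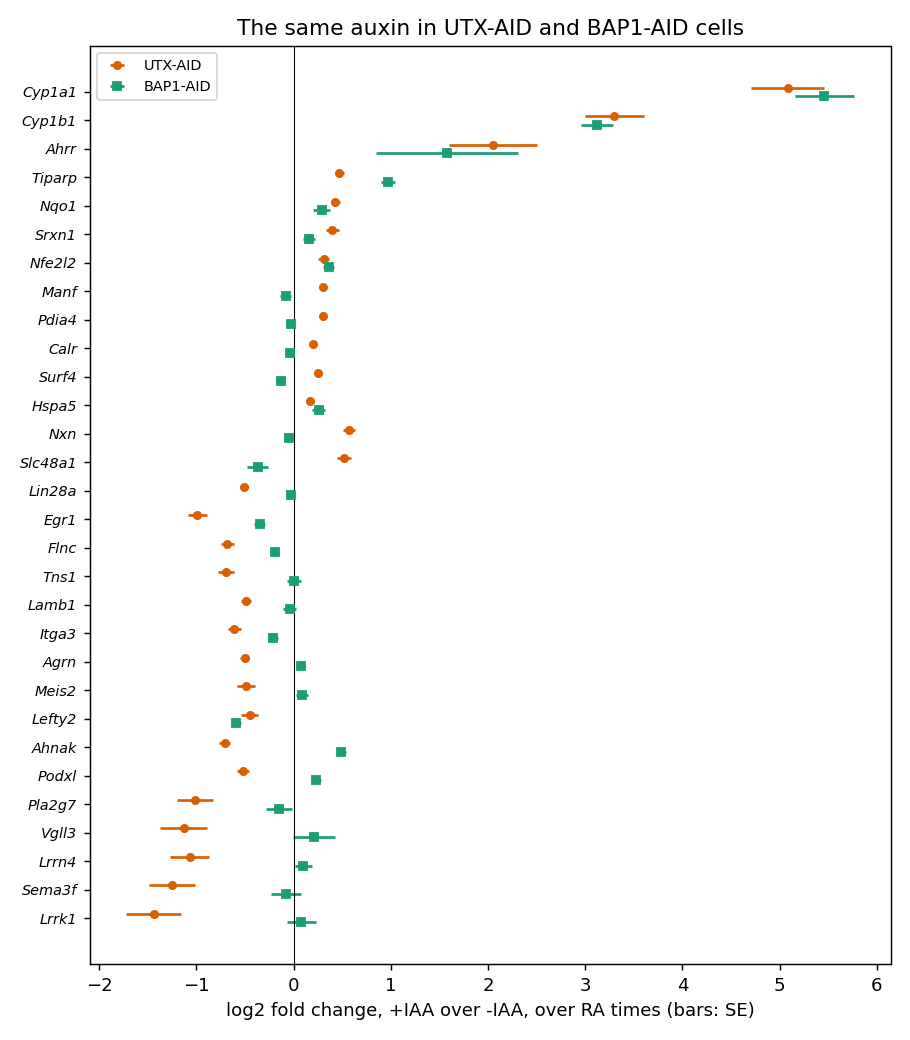
Log2 fold change of +IAA over -IAA over the RA times (horizontal axis) of 30 named genes in UTX-AID (orange circles) and BAP1-AID ESCs (green squares), with bars of 1 SE. *Cyp1a1* stands at 5.08 and 5.46, and *Lrrk1* at -1.44 and 0.078.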

How the data were processed

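RNA was measured by sequencing of polyadenylated transcripts in ESCs. According to the methods and the submitters' processing notes, the authors aligned reads to mm39 with HISAT2 2.2.1, handled them with SAMtools 1.19 and made the deposited table of estimated counts per gene with StringTie 2.2.1. The annotation and the strand setting are not given in the sources used here. All values were whole numbers, and 0 columns were left unmapped to a sample.

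The 12 UTX-AID libraries were fitted with edgeR 4.0.16 in R 4.3.3 (filterByExpr at its minimum counts of 10 per library and 15 in all, TMM scaling, quasi-likelihood test, additive terms for RA time and IAA), and p-values were adjusted by Benjamini-Hochberg over all genes tested. The 95% intervals come from the moderated standard error. Fits per time, for IAA by time, for BAP1-AID and for the difference between the clones used the same method. A lower bound on a fold used a floor of 3 counts per library, 0.0555 to 0.0714 CPM over the 12 libraries. Alternatives were RLE scaling, no filter, a replicate block, a GC and length correction, that correction with the block, group means, all 24 libraries, DESeq2 1.42.0, and each library left out. The correction in BAP1-AID was added after seeing the data.

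Genes were named by rule: every called gene, the 10 per direction with the smallest p among smaller changes, *Kdm6a*, *Kdm6b* and *Uty*, list members with an adjusted p under 0.05 and up to 4 further members by level, genes called at a single time, and RA-responsive genes such as *Hoxb1* and *Cyp26a1*. Some genes that the rule takes in are not reported here. Other names and lists are marked as picked later. Members and lists were chosen with earlier results of these data known. The fits were tested on simulated data. Coordinates are those of GENCODE vM39 on GRCm39, the assembly also called mm39.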

Additional observations from a re-analysis of the deposited data

Results flagged for a closer look

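IAA had unequal effects in the UTX-AID and BAP1-AID clones, by an adjusted p under 0.05 for the difference and log2 fold changes more than 1 unit apart, for 16 of the named genes. The same rule was met by 1.89% of all genes tested. Several of the 16 were named for their change in UTX-AID, whose libraries the difference reuses. UTX-AID minus BAP1-AID was -1.53 for *Lrrk1*, -1.36 for *Vgll3*, -1.2 for *Sema3f*, -1.19 for *Lrrn4*, -1.15 for *Rnf144b*, -1.55 for *Nhsl2* and -1.21 for *Ahnak*. It was 4.69 for *Gm2260*, whose level rests on 2 libraries, and 2.55 for *Htd2*. For the zinc finger genes *Zfp978*, *Zfp988*, *Zfp981* and *Zfp980*, which fell by 0.15 to 0.23 in UTX-AID and rose in BAP1-AID, it was -1.15, -1.14, -1.01 and -1.0, and -0.65, -0.53, -0.38 and -0.54 after a correction for GC content and length. For *Thbs1*, *Miat* and *Dcn* it was -1.08, -1.14 and -1.13, and *Dcn*, a fibroblast marker, had an adjusted p of 0.0685 within UTX-AID and of 0.0585 for the corrected difference. After the correction the difference was also under 1 log2 unit for *Lrrn4* (-0.97), *Vgll3* (-0.95), *Ahnak* (-0.94) and *Dcn* (-0.64), as it was for these zinc finger genes. It stayed beyond 1 unit for the rest of the 16. After the correction the rule was met by 208 of the 16816 genes tested. The zinc finger genes, *Thbs1* and *Miat* were picked after their values were seen. With single libraries left out, *Zfp981* and *Zfp988* were each under an adjusted p of 0.05 within UTX-AID in 3 of 12 fits. *Zfp980* was so in 6 and *Zfp978* in 12.

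The effect of IAA differed among RA times for *Htd2* (adjusted p = 0.0387), *Gm45351* (adjusted p = 0.0387) and *Dynlt1f* (adjusted p = 0.0445). With 2 libraries per arm and time, each of these rests on 4 libraries at a time.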

How the results depend on the processing

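Of the 486 genes with an adjusted p under 0.05, 186 (38.3%) stayed under it in all 20 alternatives and 0 changed sign in any. With all 24 libraries, 3 genes were called higher and 18 lower, 9 genes were called at 0 h and 18 at 3 h, and 0 had an IAA effect that differed among times. DESeq2 gave 331 genes higher and 516 lower at any fold, 15 called at 0 h, 13 at 3 h and 5 for IAA by time. Without the filter, 16, 20 and 8 genes were called at 0, 3 and 6 h and 7 for IAA by time. The GC and length correction lowered the genes called for the difference between the clones from 318 to 208, and those called in BAP1-AID from 184 to 108. With single libraries left out, 2 to 6 genes were called higher and 6 to 13 lower, 87 to 167 were higher and 190 to 345 lower at any fold, 2 to 8, 4 to 11 and 0 to 4 were called at 0, 3 and 6 h, and 0 to 5 for IAA by time. The lowest counts at any fold came without +IAA 0 h replicate 1 (higher) and without +IAA 3 h replicate 2 (lower). Genes near 0 changed sign with a library left out, namely *Mtf2* (-0.0063 to 0.022), *Arnt* (-0.059 to 0.0062), *Zfp42* (-0.023 to 0.022), *Lefty1* (-0.12 to 0.032), *Krt8* (-0.12 to 0.036), *Asns* (-0.023 to 0.076) and *Gata4* (-0.043 to 0.36), as did *Hoxa5* with group means (0.047). The cause of these shifts was not tested.

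Replicate numbers are shared by the arms, but the labels do not say that they mark a shared culture or day. Deviations of same-numbered libraries correlated by 0.0284 to 0.215 over 15 pairs of groups, not over 0.1 in every pair, so the samples were taken to share a number only. Each of the 12 libraries correlated best with its own number, as a hint from the data. With the replicate block, 366 genes were higher and 506 lower at any fold, 12, 15 and 6 were called at 0, 3 and 6 h, and 5 for IAA by time. With the block and the GC and length correction these were 366, 523, 12, 17, 5 and 5, and 204 for the difference between the clones.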

Other observations

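A few further genes moved with IAA in UTX-AID, all picked after their values were seen. *Meg3*, an imprinted noncoding RNA, ran from 107 to 267 CPM (median 190) without and from 71.4 to 163 CPM (median 130) with IAA (log2 fold change -0.59, SE 0.0760, adjusted p = 0.000243). *Mirg*, a noncoding host of microRNAs in the same imprinted region, fell by 0.57 (adjusted p = 0.0120). *Miat*, another noncoding RNA, ran from 2.28 to 3.56 CPM without and from 1.15 to 1.96 CPM with IAA, with no overlap (-0.95, SE 0.175, adjusted p = 0.00532). *Nab2*, a corepressor and target of EGR1, fell by 0.61 (adjusted p = 0.00498), and it overlaps *Stat6* and *Nemp1* on the other strand. *Ngfr*, the low-affinity neurotrophin receptor, fell by 0.80 (adjusted p = 0.00336).

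Of 57 zinc finger genes of the numbered Zfp9xx symbols, a list added after values were seen, 12 fell, against 1.94% of all tested genes. Of the same genes 0 rose, and the median was -0.10. With single libraries left out, 7 to 15 fell. In BAP1-AID 40 rose and 2 fell, or 16 and 7 after the correction for GC content and length. *Zfp992* went from 252 to 305 CPM to between 223 and 256 CPM in UTX-AID (-0.22, adjusted p = 0.000647) and its corrected log2 fold change in BAP1-AID was -0.20 (adjusted p = 0.0297), with a corrected difference of 0.035 (adjusted p = 0.801). Uncorrected, it was 0.32 in BAP1-AID with a difference of -0.56 (adjusted p = 1.30e-06). Many of these genes are close paralogs that can share reads, so the value of any member is uncertain. Of 6 p53 targets, *Ccng1*, encoding cyclin G1, fell (-0.19, adjusted p = 0.00369), and of 10 genes of cholesterol synthesis and 9 of glycolysis 0 passed the test, with each interval within 0.5 of 0.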
